A study of Mus musculus with 9 samples.

Results

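Macrophages of mice homozygous for the Stat6 S807A substitution were compared with macrophages of wild type (WT) mice. The members are the libraries that the genotype labels assign to those groups, 6 of the 9 in the series, and every gene that could be tested between them. The 3 WT and 3 S807A libraries hold poly(A) RNA of primary peritoneal macrophages, elicited with the irritant thioglycollate, taken after a short adherence step and kept in DMEM with fetal bovine serum. Libraries are named by genotype and replicate number, WT1 to WT3 and SA1 to SA3. The other group, homozygous for S807E, shared the model of the spread and appears here beside single genes. No cytokine is named for any group. The labels give no age, sex or strain, and nothing says that the libraries of a group came from separate mice, so the p-values measure the spread between these libraries only.

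STAT6 is the transcription factor that the interleukin-4 and interleukin-13 receptors activate. It is phosphorylated on a tyrosine by Janus kinases, pairs with a second STAT6 molecule and enters the nucleus, where in macrophages it turns on the genes of alternative activation such as Arg1, Chil3, Retnla and Mrc1. Serines in its C-terminal part can also be phosphorylated, and Ser807 is one studied here. Alanine in place of that serine cannot take a phosphate, and glutamate is used as a charged stand-in for one. The study's title ties Ser807 phosphorylation to protection of macrophages from senescence, and the comparison asks which transcripts differ when that serine is lost.

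The 6 libraries held 17514211 to 24618608 counts, and 3 counts, the limit that a count of 0 allows, came to 0.12 to 0.176 CPM (the count scaled to its library total). Such limits cover counting error only. WT1 and WT2 differed from each other more than any other pair of the same genotype, with a chi-square per degree of freedom of 16.3 against 3.69 to 10.1 in the remaining pairs, so no library was a copy of another. Each of the 14 macrophage core markers reached 1 CPM, and their summed level was 20862 to 26315 CPM in WT and 20881 to 21689 CPM in S807A. Xist was detected in each library and the Y-linked Kdm5d, Eif2s3y, Uty and Ddx3y had 0 counts in all 9. Of 2 other genes annotated to chromosome Y that were tested, 1 was called higher in S807A. None of 18 tested handling stress genes was called by the main edgeR fit or by DESeq2, and 4 had an unadjusted p under 0.05, all lower in S807A. In the alternative analyses at most 1 of the 18 was called, lower in S807A.

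Stat6 itself (ENSMUSG00000002147, GRCm38 chromosome 10, 127642986 to 127660957) was at 198, 201 and 187 CPM in WT and 195, 199.5 and 199.8 CPM in S807A. The groups overlapped, and the difference was within the spread (log2 change 0.02 ± 0.06 SE, adjusted p = 0.946, 95% interval -0.10 to 0.14). A substitution of 1 amino acid need not change the RNA level, so these values do not test the genotype labels. In S807E the gene was at 296 ± 14.6 CPM (SD, n = 3), above S807A (adjusted p = 5.15e-06). Of the 10 tested genes nearest to Stat6 none was called by edgeR, with 1 (Gpr182) at an unadjusted p under 0.05, and within 1 Mb on either side 1 of 61 was called, Esyt1, lower in S807A at 906, 972 and 921 CPM in WT and 805, 785 and 776 CPM in S807A (adjusted p = 0.0248). That call ended under the replicate block and without WT2, WT3, SA1, SA2 or SA3.

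Of 13501 genes tested with edgeR's quasi-likelihood F test, 549 (4.07%) had a Benjamini-Hochberg adjusted p under 0.05 and are called here, 266 higher (1.97%) and 283 lower (2.1%) in S807A. The libraries of the 2 groups did not overlap at 19.3% of tested genes, 9.6% upward and 9.71% downward, and 547 of the 549 called genes were among them. The directions differed in size. Among called genes at least 2-fold apart, 78 were higher and 41 lower, and among those under 1 CPM on average 35 were higher and 2 lower, with a median log2 change of 3.04 for the risen ones. Among called genes over 100 CPM, 40 were higher and 85 lower, with medians of 0.30 and -0.32. The median change over all tested genes was 0.0014. The count fell to 297 without WT3 and to 308 without SA1, and rose to 903 without WT2 and the S807E library 3, a pair left out after the data were seen. Of the 549 calls 250 held in each alternative analysis that tested the gene, and no called gene changed sign in any. Where several libraries are named below as left out, joined by "or", each was left out alone.

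**Figure D1:**
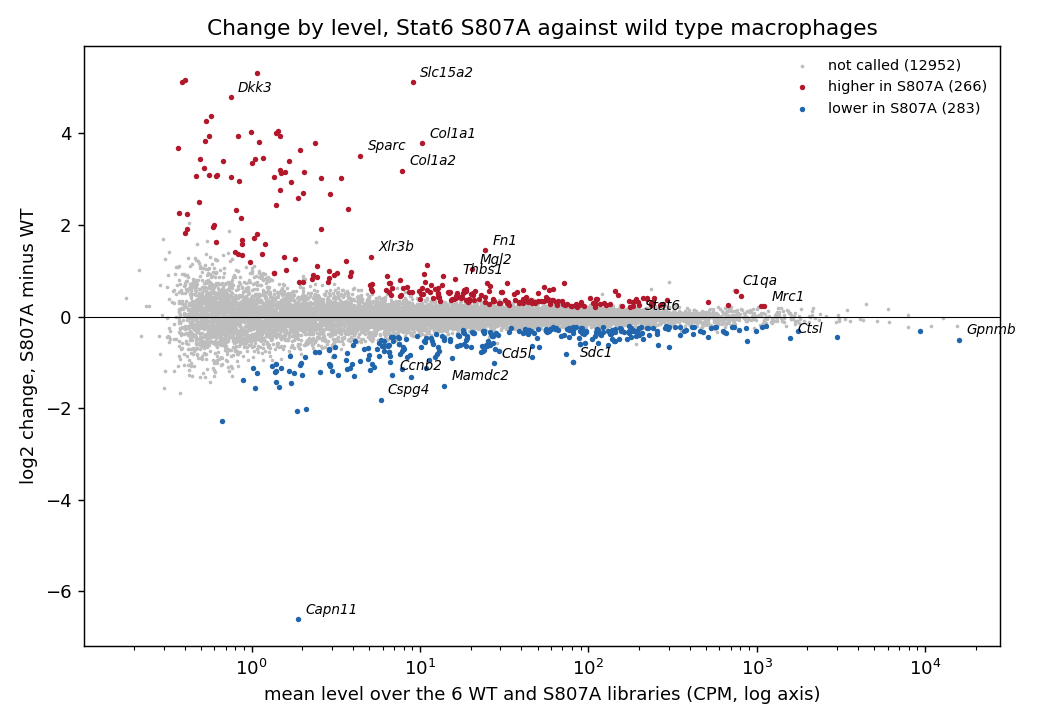
Each point is a tested gene, placed by its mean level over the 6 libraries (CPM, log axis) and its fitted log2 change, S807A minus WT. Red points are the 266 genes called higher, blue points the 283 called lower; log2 changes beyond 3 are upward except that of Capn11, and the change of Stat6 lies near 0.

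Slc15a2, which encodes the oligopeptide transporter PEPT2, had the largest change among genes averaging at least 5 CPM. The gene (ENSMUSG00000022899, GRCm38 chromosome 16, 36750177 to 36784962) stood at 0.599, 0.47 and 0.419 CPM in WT and 15.8, 20.3 and 17.1 CPM in S807A. The groups were far apart, at 34.8-fold (log2 change 5.12 ± 0.21 SE, adjusted p = 6.91e-11). In S807E it was at 2.06 ± 0.551 CPM (SD, n = 3), lower than in S807A (adjusted p = 3.87e-09). Of 217 tested solute carrier genes, Slc15a2 among them, 3 were higher and 11 lower (6.45% called, against 4.07% of all genes).

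The extracellular matrix list held the most risen genes. Of 83 listed matrix genes 61 passed the filter on low counts, and of these 33 were higher and 7 lower in S807A. That was 65.6% called, against 4.07% of all genes. Some passed only through their counts in S807A. The counts of risen members, here and by role below, are therefore set in part by the filter. The same holds for the median log2 change of 0.94, and among members averaging at least 5 CPM it was -0.08. The fibrillar collagen chain Col1a1 (ENSMUSG00000001506, GRCm38 chromosome 11, 94936224 to 94953042) was at 1.2, 1.29 and 1.68 CPM in WT and 18.5, 20.3 and 18.9 CPM in S807A, 13.8-fold higher (log2 change 3.79 ± 0.15 SE, adjusted p = 6.91e-11). Col1a2, its partner chain, was at 1.24, 1.53 and 1.91 CPM in WT and 12.6, 16.3 and 13.6 CPM in S807A (9.09-fold, adjusted p = 1.16e-07). Each S807A library lay above each WT library for both genes.

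Among the 14 collagens that passed the filter 11 rose. Besides type I they were the type III chain Col3a1, the type V chains Col5a1 and Col5a2, the basement membrane chains Col4a1 and Col4a2, the bead-forming type VI chains Col6a1, Col6a2 and Col6a3, and Col12a1. Col6a3 rose 13.9-fold, from 0.399, 0.176 and 0.326 CPM in WT to 3.7, 4.48 and 5.19 CPM in S807A (adjusted p = 1.81e-06), and Col6a2 16.1-fold (adjusted p = 2.91e-06). Col5a1 rose 8.85-fold (adjusted p = 3.6e-06). The calls of Col4a1 and Col4a2 ended without WT3 or SA1, that of Col4a1 also without SA2, with adjusted p up to 0.0969. Col4a5 was the collagen chain called lower (7.59, 5.64 and 7.21 CPM in WT and 4.1, 5.4 and 3.19 CPM in S807A, adjusted p = 0.0277), a call that ended with library totals alone and without WT1, WT3, SA1 or SA3.

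Of the enzymes and chaperones that mature collagen 6 of 13 were higher and none lower. Lox, the lysyl oxidase that crosslinks collagen and elastin, was at 1.2, 1.06 and 1.4 CPM in WT and 5.99, 6.78 and 5.91 CPM in S807A (5.06-fold, adjusted p = 1.09e-06). Serpinh1, the collagen chaperone HSP47, rose 6.8-fold from 0.36, 0.117 and 0.605 CPM to 2.6, 2.75 and 2.42 CPM (adjusted p = 4.15e-05). Bmp1, which removes the C-terminal propeptide of procollagens, and the lysyl oxidase relatives Loxl1 and Loxl2 rose as well. Adamts2, which removes the N-terminal propeptide, had 1 count in the 3 WT libraries together and 48 in S807A, a ratio of 49.4 with a 95% counting interval of 8.45 to 1991.

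Matrix glycoproteins and proteoglycans gave 13 higher and 1 lower of 20. Sparc, a collagen-binding glycoprotein, was at 0.679, 0.763 and 0.698 CPM in WT and 7.4, 8.46 and 8.58 CPM in S807A (11.4-fold, adjusted p = 1.7e-09). Fn1, fibronectin, was at 11.3, 14.5 and 13.4 CPM in WT and 30.6, 35.7 and 40.3 CPM in S807A (2.73-fold, adjusted p = 1.09e-06). Biglycan (Bgn), tenascin C (Tnc), periostin (Postn), fibrillin 1 (Fbn1) and perlecan (Hspg2) rose 8.18-fold, 8.18-fold, 7.61-fold, 6.01-fold and 8.93-fold. Thbs2 had 3 counts in WT and 130 in S807A, a ratio of 44.6 (14.9 to 219), and the fibulin Fbln2 had 6 and 95, a ratio of 16.3 (7.21 to 45.5). The remaining risen members were Ccn1, Ccn2 and the laminin chain Lamb1.

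Thbs1, a relative of Thbs2 and an activator of latent TGF-beta, was at 10.7, 12.2 and 12.1 CPM in WT and 18.4, 22.2 and 21 CPM in S807A (1.76-fold, adjusted p = 6.36e-05). Cspg4, the proteoglycan NG2, was the exception of the group and fell 3.52-fold, from 9.11, 8.63 and 9.54 CPM to 3.17, 2.34 and 2.16 CPM (log2 change -1.82 ± 0.19 SE, adjusted p = 1.08e-05).

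Matrix proteases and their inhibitors split, with 3 higher and 5 lower. The membrane protease Mmp14, an activator of other matrix proteases, was at 21.2, 27.3 and 26 CPM in WT and 39.8, 41.1 and 43 CPM in S807A (1.67-fold, adjusted p = 0.000559). The inhibitor Timp3 rose 15.5-fold (adjusted p = 4.47e-06), while Timp2 fell 1.27-fold (adjusted p = 0.00111). Mmp12, the macrophage elastase, was at 1203, 887 and 999 CPM in WT and 801, 684 and 645 CPM in S807A (adjusted p = 0.00341), and Mmp8, Mmp19 and Mmp27 fell 1.56-fold, 1.29-fold and 1.63-fold. The rise of Timp1 (0.719, 1.23 and 0.884 CPM in WT and 1.94, 1.63 and 1.75 CPM in S807A, adjusted p = 0.0494) lost its call in 8 of the 13 alternatives that tested it: with DESeq2, with S807E out of the fit, with a replicate block, and without WT1, WT3, SA1, SA2 or SA3.

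**Figure D2:**
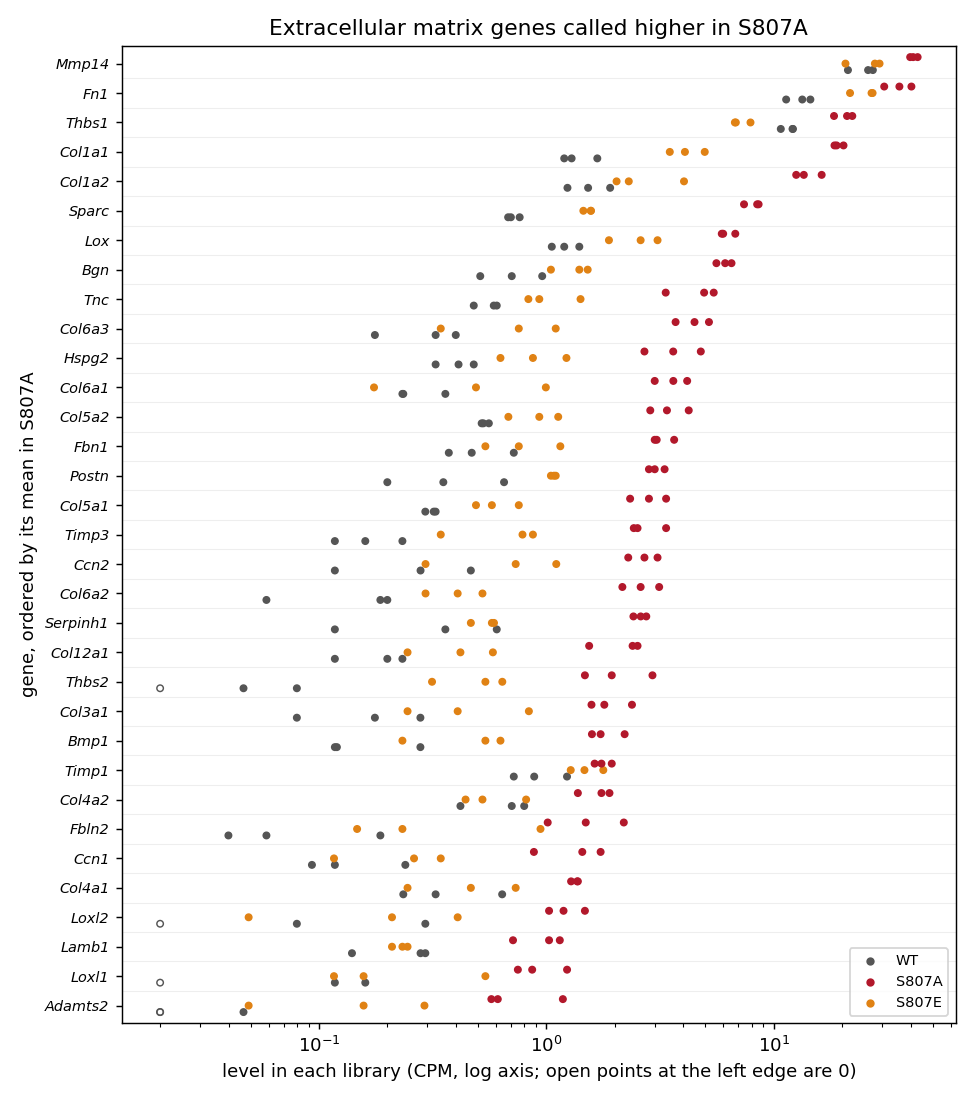
Level in each library (CPM, log axis) of the 33 matrix genes called higher in S807A, ordered by the S807A mean; grey points are WT, orange S807E and red S807A, and open points at the left edge are 0. In each row the red points lie to the right of the grey ones, and for all but Timp1 the S807A level is also above that of S807E at an adjusted p under 0.05.

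Most risen matrix genes were low. Among list members averaging at least 5 CPM, 5 were higher and 7 lower. Of the 40 matrix calls 36 held in each alternative that tested the gene. The fit of genes of at least 5 CPM did not test members averaging less. Without WT2 and S807E library 3 there were 37 higher and 7 lower. Of 12 fibroblast markers, which include Col1a1, Col1a2, Col3a1 and Postn, 5 reached 1 CPM, and their summed level was 4.19 to 6.51 CPM in WT and 39 to 44.4 CPM in S807A, and 8.66 to 12.5 CPM in S807E. The fibroblast markers Dpt and Thy1 had 0 counts in all 9 libraries. Lum had 1 count in S807A and 0 in WT, Dcn had 0, 1 and 1 counts in WT and 10, 5 and 10 in S807A, and Pdgfra had 1, 0 and 1 counts in WT and 5, 4 and 6 in S807A. Pdgfrb did not pass the test (1.16, 1.58 and 1.68 CPM in WT and 1.63, 2.14 and 1.75 CPM in S807A, adjusted p = 0.622). Of 10 mesothelial markers 6 were at 0 in all libraries, and their sum never exceeded 0.103 CPM. The smooth muscle and pericyte markers summed to 10.1 to 10.9 CPM in WT and 7.85 to 8.85 CPM in S807A, a sum in which the fall of Cspg4 and the rise of Acta2 run against each other. In bulk RNA, fewer cells of a type and less RNA per cell cannot be told apart, and whether macrophages or another cell carried the matrix RNA was not tested.

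Genes that mesenchymal and contractile cells are known for were also looked at, and most of them were picked after their values were seen, so their count is no result. Some of them did not pass the filter on low counts: Tagln had 2, 4 and 5 counts in WT and 2, 8 and 2 in S807A, Myh11 had 0, 1 and 4 and 0, 4 and 0, Cnn1 had 0, 1 and 3 and 4, 5 and 3, and Tcf21 had 0 in all 9 libraries. Acta2, smooth muscle actin, is a listed muscle and pericyte marker and was at 0.519, 1.29 and 0.652 CPM in WT and 4.85, 5.04 and 5.14 CPM in S807A (6.38-fold, adjusted p = 3.89e-06). The BMP antagonist Grem1 had 9 counts in WT and 127 in S807A, a ratio of 14.5 (7.41 to 32.5). The collagen receptor Ddr2 had 4 and 66 counts, a ratio of 17 (6.33 to 64.1), and the transcription factor Prrx1 had 3 and 42, a ratio of 14.4 (4.6 to 72.6). By the naming rule, the collagen chaperone Fkbp10 had 3 and 68 counts, a ratio of 23.3 (7.65 to 115.9), and the hyaluronan-binding Cemip had 7 and 118, a ratio of 17.3 (8.16 to 44.1).

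Aebp1 was at 0.24, 0.235 and 0.372 CPM in WT and 2.51, 3.67 and 2.98 CPM in S807A (adjusted p = 3.26e-06), and Fstl1 at 0.28, 0.294 and 0.279 CPM in WT and 2.51, 2.6 and 2.83 CPM in S807A (adjusted p = 4.47e-06). The ubiquitin ligase Nedd4 was at 0.2, 0.176 and 0.0931 CPM in WT and 2.6, 3.11 and 2.47 CPM in S807A (16.7-fold, adjusted p = 2.91e-06). Tpm1, a tropomyosin that macrophages express at a higher level, was at 115, 101 and 105 CPM in WT and 128, 119 and 116 CPM in S807A and did not pass (adjusted p = 0.23), while the low Tpm2 rose 3.51-fold (adjusted p = 0.00415).

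**Figure D3:**
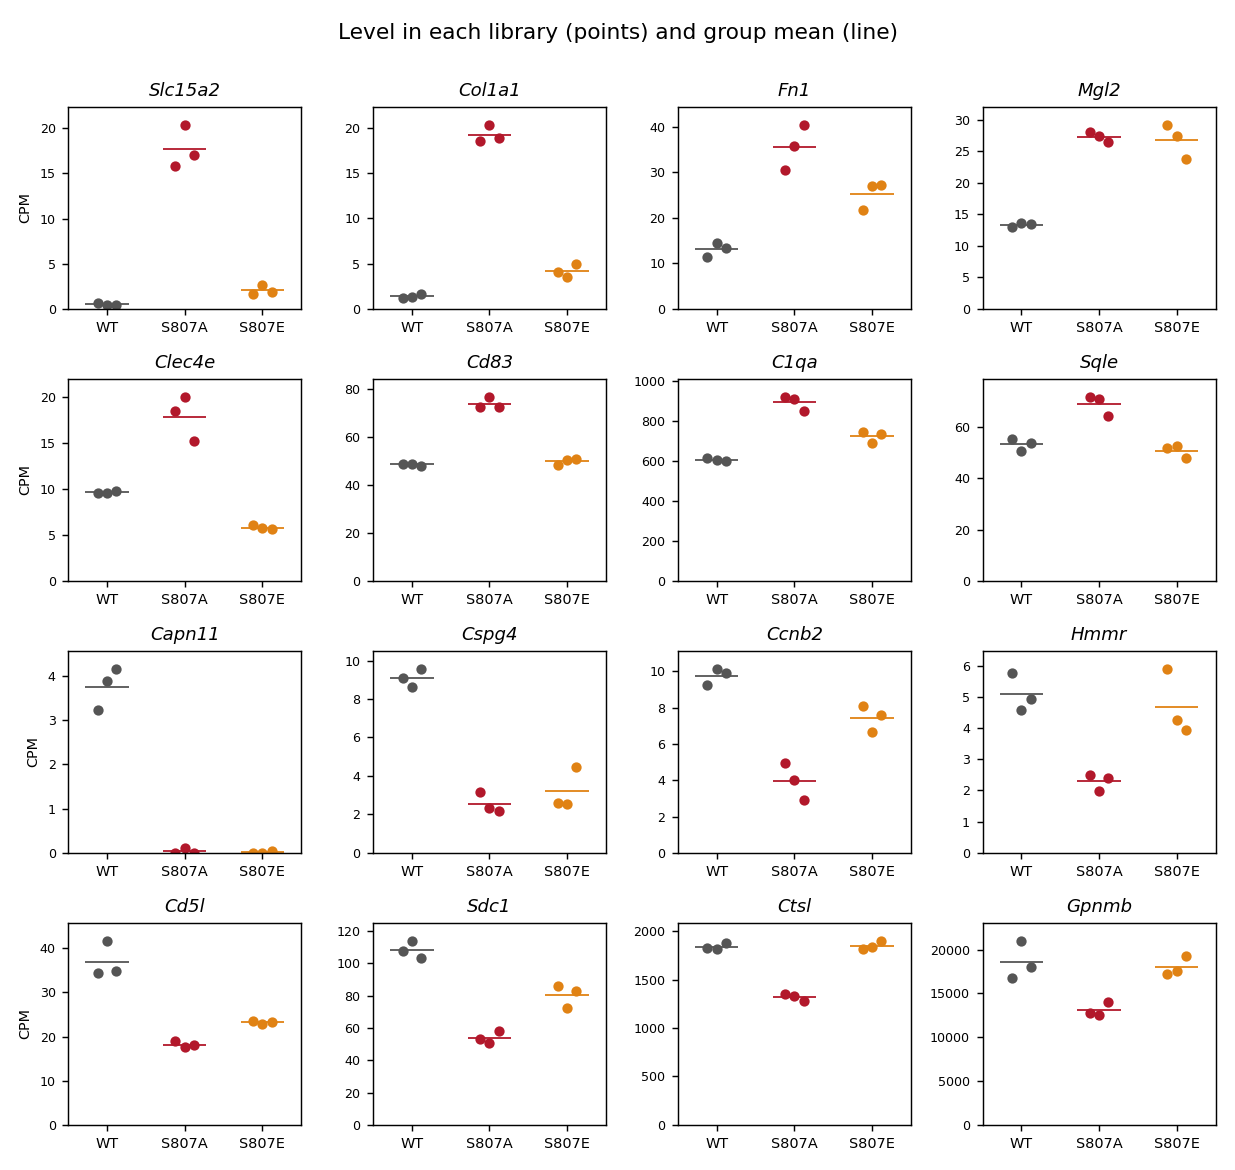
CPM in each library for 16 genes, on linear axes that start at 0, with points for libraries and lines for group means. Slc15a2 and Col1a1 are far higher in S807A than in the other groups, Capn11 is near 0 in both mutants, Mgl2 and Fn1 are raised in both, and Ctsl, Gpnmb and Hmmr are lower in S807A than in both other groups.

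Capn11, a calpain protease, had the largest fall. The gene (ENSMUSG00000058626, GRCm38 chromosome 17, 45630204 to 45659325) had 81, 66 and 89 counts in WT and 0, 2 and 0 in S807A, a ratio of 115 with a 95% counting interval of 31.4 to 953 (adjusted p = 3.79e-07). In S807E it had 0, 0 and 1 counts. Both mutants were thus near 0, and they could not be told from each other (adjusted p = 0.831).

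The other genes with large falls are of several kinds. Mamdc2 was at 21.9, 19.96 and 20.1 CPM in WT and 7.62, 7.64 and 6.42 CPM in S807A (2.85-fold, adjusted p = 2.55e-07), and the organic anion transporter Slco2b1 at 12.1, 13.8 and 12.2 CPM in WT and 5.64, 4.48 and 5.04 CPM in S807A (2.49-fold, adjusted p = 3.32e-06). Sdc1, a cell surface heparan sulfate proteoglycan, was at 108, 114 and 103 CPM in WT and 52.9, 51 and 58.2 CPM in S807A (2-fold, adjusted p = 3.79e-07). Cd5l, a secreted macrophage protein also known as AIM, was at 34.3, 41.6 and 34.8 CPM in WT and 19, 17.6 and 18 CPM in S807A (2.02-fold, adjusted p = 1.13e-06).

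The desmosomal plakophilin Pkp2, the adrenergic receptor Adra1a, the orphan receptor Mrgpre and the serine protease Htra4 fell 2.24-fold, 2.2-fold, 2.18-fold and 2.13-fold. Myrf, a membrane-bound transcription factor, and Hmga2, a chromatin protein of proliferating cells, fell 2.05-fold and 1.98-fold. At lower levels Dio2, the deiodinase that activates thyroid hormone, was at 4.79, 2.29 and 3.03 CPM in WT and 0.705, 0.917 and 0.925 CPM in S807A (4.06-fold, adjusted p = 0.000175). The elongation factor Eef1a2, the lipid flippase Atp9a and the glycosyltransferase Galnt15 fell 4.17-fold, 2.91-fold and 4.82-fold. The myosin-binding Mybpc1 fell 2.93-fold (adjusted p = 0.0199), and lost its call without WT2, WT3, SA1 or SA3.

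By absolute change, the largest loss among called genes was that of Gpnmb, a transmembrane glycoprotein of lipid-loaded macrophages, at 16795, 20940.0 and 17987 CPM in WT and 12727, 12577 and 13973 CPM in S807A (1.42-fold, adjusted p = 0.00077). The lysosomal proteases Ctsd and Ctsl were at 3189.5, 3729 and 3444 CPM in WT and 2519, 2515 and 2585 CPM in S807A (adjusted p = 0.000523) and 1828, 1812 and 1874 CPM in WT and 1356, 1328 and 1283 CPM in S807A (adjusted p = 2.84e-05). Creg1, another lysosomal glycoprotein, fell 1.24-fold (adjusted p = 0.00102). The shared cytokine receptor chain Csf2rb, which has the close copy Csf2rb2, was at 1849.5, 2053 and 1946 CPM in WT and 1524, 1582 and 1604 CPM in S807A (adjusted p = 0.0063), without a call when SA1 was left out. The integrin Itgax, known as CD11c, fell 1.17-fold (adjusted p = 0.0192), without a call when WT3, SA1, SA2 or SA3 was left out.

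Among called genes the largest gains in CPM were those of C1qa, a chain of the complement recognition protein C1q, at 612, 605 and 597 CPM in WT and 917, 911 and 849 CPM in S807A (1.48-fold, adjusted p = 7.63e-06), and of Cd72 at 707, 692 and 658 CPM in WT and 1002, 894 and 902 CPM in S807A (1.36-fold, adjusted p = 0.000203). The companion chains C1qb and C1qc did not pass, at 1892, 2173 and 1966 CPM in WT and 2271, 2291 and 2284 CPM in S807A (adjusted p = 0.127) and 1369, 1616 and 1439 CPM in WT and 1575, 1590.0 and 1666 CPM in S807A (adjusted p = 0.407). Rassf4 and the endocytic adaptor Dab2 rose 1.26-fold and 1.33-fold. Sdc3, a syndecan, rose 1.2-fold (adjusted p = 0.0165), a call that ended without WT3, SA1 or SA3. The mannose receptor Mrc1 rose 1.17-fold (adjusted p = 0.0295) and the actin-severing protein Cfl1 1.17-fold (adjusted p = 0.0293). Both calls ended under the replicate block and without WT1, WT3, SA1, SA2 or SA3, that of Mrc1 also without WT2. Xlr3b, an X-linked gene with near-identical copies among which reads may be split, was at 3.32, 2.41 and 3.03 CPM in WT and 7.18, 7.64 and 7.09 CPM in S807A (adjusted p = 0.00042).

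A part of the mitotic genes fell in S807A, and none rose. Of 88 tested genes of G2, mitosis and cytokinesis 19 were lower and none higher (21.6% called, against 4.07% of all genes). A negative log2 change was seen in 80, and the median over the list was -0.34. The falls included both B-type cyclins that drive mitotic entry: Ccnb2 was at 9.23, 10.1 and 9.91 CPM in WT and 4.94, 4.03 and 2.93 CPM in S807A (2.43-fold, adjusted p = 4.63e-05) and Ccnb1 at 8.67, 9.51 and 7.63 CPM in WT and 4.72, 4.89 and 4.57 CPM in S807A (1.81-fold, adjusted p = 0.000329). The promoters of these and of 2 other fallen genes are shown because mitotic genes are known for CCAAT boxes, bound by NF-Y, and for the cell cycle homology region (CHR, here the letters TTTGAA), bound by MuvB complexes. The 250 bases before the RefSeq start are given 5′ to 3′ on the gene's strand (GRCm38.p6), with CCAAT and TTTGAA on either strand in capitals.
Ccnb2 (chr9:70421555-70421804, minus strand): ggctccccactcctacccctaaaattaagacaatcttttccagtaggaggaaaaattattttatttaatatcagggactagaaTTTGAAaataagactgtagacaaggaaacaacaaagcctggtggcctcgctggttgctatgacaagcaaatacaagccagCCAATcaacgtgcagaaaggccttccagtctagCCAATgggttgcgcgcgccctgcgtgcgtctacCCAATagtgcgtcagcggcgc
Ccnb1 (chr13:100786487-100786736, minus strand): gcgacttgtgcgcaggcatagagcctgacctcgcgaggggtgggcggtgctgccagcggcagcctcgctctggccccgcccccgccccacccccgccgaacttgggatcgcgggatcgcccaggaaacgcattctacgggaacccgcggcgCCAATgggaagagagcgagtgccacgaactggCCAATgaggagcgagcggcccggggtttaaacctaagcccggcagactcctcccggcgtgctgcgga
Ube2c (chr2:164769679-164769928, plus strand): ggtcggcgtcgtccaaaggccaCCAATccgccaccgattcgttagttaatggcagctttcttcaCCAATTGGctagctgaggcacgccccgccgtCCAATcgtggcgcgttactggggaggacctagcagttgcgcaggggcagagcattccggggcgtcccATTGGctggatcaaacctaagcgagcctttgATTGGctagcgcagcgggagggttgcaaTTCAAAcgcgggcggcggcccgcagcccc
Hmmr (chr11:40733438-40733687, minus strand): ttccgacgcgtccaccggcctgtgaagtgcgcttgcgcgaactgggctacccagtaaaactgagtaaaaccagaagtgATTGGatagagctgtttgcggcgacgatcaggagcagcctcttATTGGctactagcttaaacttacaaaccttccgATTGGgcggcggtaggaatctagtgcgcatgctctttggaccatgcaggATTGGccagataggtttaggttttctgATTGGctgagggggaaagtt

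The count of CCAAT was 3 in Ccnb2, 2 in Ccnb1, 6 in Ube2c and 5 in Hmmr, overlapping matches included. Among the mitotic genes called lower, 15 of the 18 with a promoter sequence held CCAAT (83.3%), against 52 of 75 tested mitotic genes (69.3%) and 36.7% of the 9635 tested genes with a promoter. TTTGAA was present in 7 of the 18 (38.9%), 26 of the 75 (34.7%) and 10.8% of all. These matches describe the letters in this window only.

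The counts by role stand against 2.1% of all genes called lower. By role, 5 of 16 cyclins and mitotic kinases fell, among them Nek2 (2.05-fold, adjusted p = 0.00569), a centrosome kinase. Spindle and cytokinesis genes gave 7 of 26, all 26 with a negative change. Hmmr, a microtubule-binding protein of the spindle, was at 5.75, 4.58 and 4.93 CPM in WT and 2.51, 1.99 and 2.42 CPM in S807A (2.21-fold, adjusted p = 0.000879), and Aspm, which organizes spindle poles, was at 5.23, 4.4 and 6.1 CPM in WT and 3.04, 1.94 and 2.21 CPM in S807A (2.18-fold, adjusted p = 0.00097). Ube2c, the ubiquitin-conjugating enzyme of the anaphase-promoting complex, was at 6.23, 5.87 and 5.49 CPM in WT and 3.04, 2.85 and 3.03 CPM in S807A (1.97-fold, adjusted p = 0.00103), one of 2 called among 11 phosphatase, APC and checkpoint genes. Of 17 kinetochore genes 2 fell, Cenpf (2.04-fold, adjusted p = 0.00464) being one. Of 10 condensation genes 2 fell, and of 8 regulators 1.

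The 7 genes Ccnb2, Ccnb1, Hmmr, Aspm, Nek2, Cenpf and Ube2c held their calls in each alternative that tested them. The remaining 12 lost theirs in at least 1. Between 7 and 33 mitotic genes were lower over the alternatives, with the top count reached without WT2 and S807E library 3 (33), and none was higher in any. The count was 8 without WT1, 10 without WT3, 7 without SA2, 11 without SA3, 12 with library totals alone and 8 among genes of at least 5 CPM. Mitotic genes averaging less were not tested in the last of these. The proliferation marker Mki67 was at 52.1, 42.9 and 42.4 CPM in WT and 38.7, 31.2 and 37.4 CPM in S807A (adjusted p = 0.0375), a call that ended without WT1, WT3, SA1, SA2 or SA3, with library totals alone and among genes of at least 5 CPM. The kinase Cdk1, at 14.1, 15.6 and 12.6 CPM in WT and 13.9, 9.22 and 9.35 CPM in S807A, did not pass (adjusted p = 0.216). In S807E, Ccnb1 was at 8.51 ± 0.581 CPM and Hmmr at 4.69 ± 1.05 CPM (SD, n = 3), both above S807A (adjusted p = 0.00025 and adjusted p = 0.00181).

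**Figure D4:**
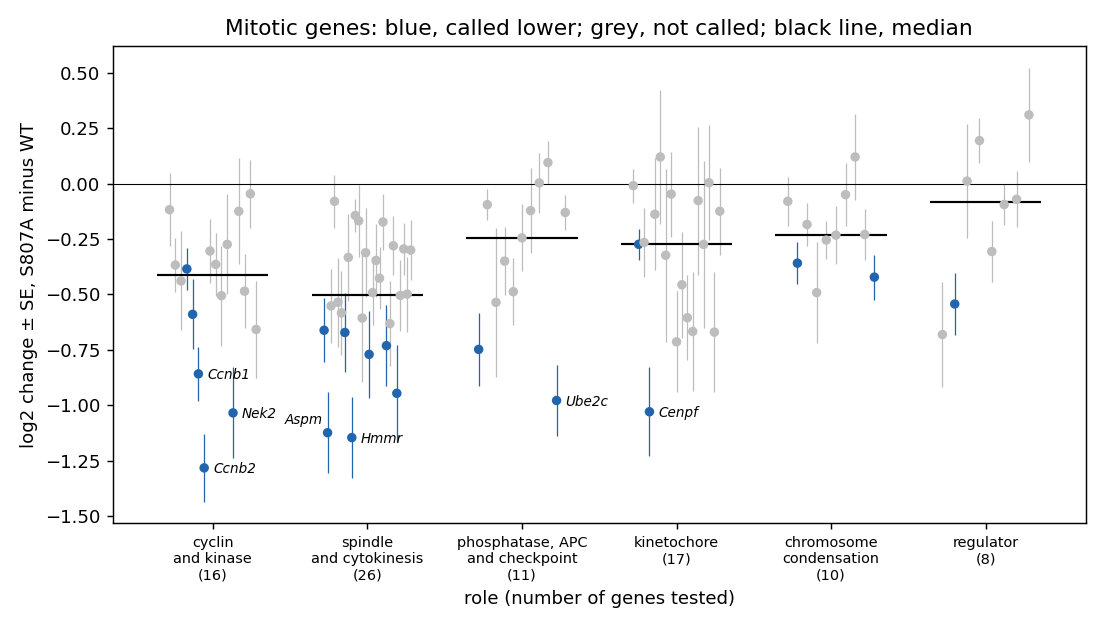
Log2 change, S807A minus WT, with its SE for the 88 tested mitotic genes, grouped by role; blue marks the 19 called lower, grey the genes not called and black lines the group medians. In each role the median is below 0, and it is lowest for spindle and cytokinesis genes, at -0.50.

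Of 51 G1/S and DNA replication genes 2 were higher and none lower (3.92% called, against 4.07% of all genes). A positive change was seen in 39, and the median was 0.11. Ccnd2, a D-type cyclin, had 6 counts in WT and 52 in S807A, a ratio of 8.92 (3.83 to 25.4). Its partner kinase Cdk6 was at 45.3, 40.2 and 43.1 CPM in WT and 53.9, 52.7 and 53.2 CPM in S807A (adjusted p = 0.0132), and lost its call without WT3, SA1 or SA3. Of 38 homologous recombination and Fanconi genes Brca1 alone was called (2.63%, against 4.07% of all genes). It was lower, at 7.27, 7.98 and 6.7 CPM in WT and 4.14, 3.82 and 4.11 CPM in S807A (1.81-fold, adjusted p = 0.000367). In S807E Brca1 was at 8.79 ± 0.44 CPM (SD, n = 3), above S807A (adjusted p = 1.57e-05).

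The senescence and arrest list held 34 tested genes, of which 2 rose and 2 fell (11.8% called, against 4.07% of all genes, median -0.03). Cdkn1a, the p21 inhibitor of cyclin-dependent kinases, was at 213, 241 and 215 CPM in WT and 197, 209 and 206 CPM in S807A and did not pass (adjusted p = 0.359). Igfbp7 rose 7.73-fold from 0.24, 0.0587 and 0.233 CPM to 1.37, 1.43 and 1.7 CPM (adjusted p = 0.000164), Hmga2 fell as above, and Cdkn1c, the p57 inhibitor, was at 2.88, 2.64 and 2 CPM in WT and 0.661, 1.12 and 0.976 CPM in S807A (adjusted p = 0.00923), a fall that lost its call without SA1. Cdkn2a, the p16 and p19 locus, did not pass the filter on low counts, with 3, 0 and 2 counts in WT and 4, 4 and 3 in S807A, and Il6 had 1 count in the 6 libraries.

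More genes of inflammatory activation rose than fell. Of 38 NF-kB subunits and targets 10 rose and 2 fell (31.6% called, against 4.07% of all genes), with a median of 0.20. Cd83, a maturation marker of antigen-presenting cells, was at 48.7, 49 and 48.1 CPM in WT and 72.7, 76.6 and 72.8 CPM in S807A (1.52-fold, adjusted p = 7.63e-06). Acod1, which makes itaconate, was at 6.15, 7.92 and 7.73 CPM in WT and 15.2, 14.5 and 11.6 CPM in S807A (1.91-fold, adjusted p = 0.000546), and the actin regulator Marcksl1 at 6.27, 7.75 and 6.84 CPM in WT and 15.6, 15.8 and 13.6 CPM in S807A (2.17-fold, adjusted p = 1.15e-05).

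Of 16 subunits and regulators Nfkbie and Tnip3 were the 2 that rose (12.5% called, against 4.07% of all genes). Nfkbie, an inhibitor of NF-kB, was at 23.2, 27.4 and 25.2 CPM in WT and 38.9, 34.6 and 35.4 CPM in S807A (adjusted p = 0.000514), and Tnip3 rose 1.39-fold. Among the targets the signalling adaptor Traf1 rose 1.49-fold. The C-type lectin Clec4e, the receptor Mincle for microbial and damage-associated lipids, was at 9.55, 9.57 and 9.73 CPM in WT and 18.4, 19.9 and 15.2 CPM in S807A (1.86-fold, adjusted p = 4.63e-05). Its neighbour and partner receptor Clec4d went the other way, at 156, 171 and 180.1 CPM in WT and 117, 119 and 114 CPM in S807A (1.45-fold, adjusted p = 3.26e-05). Without WT2 and S807E library 3 the list gave 18 higher and 2 lower.

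Of 26 chemokines and receptors 6 rose and 3 fell (34.6% called, against 4.07% of all genes). The ligand Ccl3 was at 17.8, 17.2 and 16.8 CPM in WT and 27, 23.6 and 25.3 CPM in S807A (1.46-fold, adjusted p = 0.00048), and the fractalkine receptor Cx3cr1 at 5.03, 4.23 and 4.19 CPM in WT and 10.1, 6.57 and 8.33 CPM in S807A (1.85-fold, adjusted p = 0.00318). The calls of Ccl2, Ccl5 and Cxcl10 (higher) and of Ccl6, Cxcl14 and Cxcr4 (lower) each ended without at least 3 of the 6 libraries in turn. The cytokine Tnf was at 10.9, 10.4 and 9.73 CPM in WT and 18.6, 17.4 and 13.8 CPM in S807A (1.61-fold, adjusted p = 0.00097). The list of secretory phenotype (SASP) genes of senescent cells shares Tnf, Ccl3 and the matrix proteases with other lists. Of its 26 tested genes 9 rose and 4 fell (50% called, against 4.07% of all genes). Its median of 0.17 ran from -0.06 to 0.40 over the alternatives, and the risen genes numbered 4 without WT1 or WT3, 5 without SA1, and 3 without SA2 or SA3. Cd86, a costimulatory ligand, was at 5.59, 6.05 and 5.03 CPM in WT and 8.29, 12.1 and 8.74 CPM in S807A (1.75-fold, adjusted p = 0.00341).

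Pattern recognition genes gave 5 higher and 1 lower of 33 (18.2% called, against 4.07% of all genes). Tlr1 was at 95.6, 95.9 and 97.4 CPM in WT and 126, 129.7 and 121 CPM in S807A (1.3-fold, adjusted p = 0.000425). The lipopolysaccharide co-receptor Cd14 was at 79.6, 77.9 and 83 CPM in WT and 108, 97.2 and 96.1 CPM in S807A (adjusted p = 0.00601) and lost its call without SA1, and its partner Tlr2 (1.26-fold, adjusted p = 0.0107) lost it without WT3 or SA2. Of 39 type I interferon genes 3 rose and none fell (7.69% called, against 4.07% of all genes). A positive change was seen in 33 of them, and the list median was 0.20. The factor Irf7 was at 90.5, 87.3 and 87.8 CPM in WT and 123, 120.3 and 107 CPM in S807A (1.32-fold, adjusted p = 0.000661), and Ifi44 at 6.55, 5.28 and 6.7 CPM in WT and 9.61, 10.1 and 8.99 CPM in S807A (1.54-fold, adjusted p = 0.00849). Ifi27l2a (adjusted p = 0.0205) lost its call without WT3, SA1 or SA2. Of 27 MHC class II and interferon gamma genes the checkpoint ligand Cd274 was called (3.7%, against 4.07% of all genes). It was lower, at 161, 153 and 165 CPM in WT and 121, 134 and 126 CPM in S807A (adjusted p = 0.00525), a call that ended without WT3 or SA1. The leukotriene B4 receptor Ltb4r1 was at 1.84, 1.29 and 1.49 CPM in WT and 3.97, 3.31 and 2.78 CPM in S807A (2.15-fold, adjusted p = 0.00318).

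**Figure D5:**
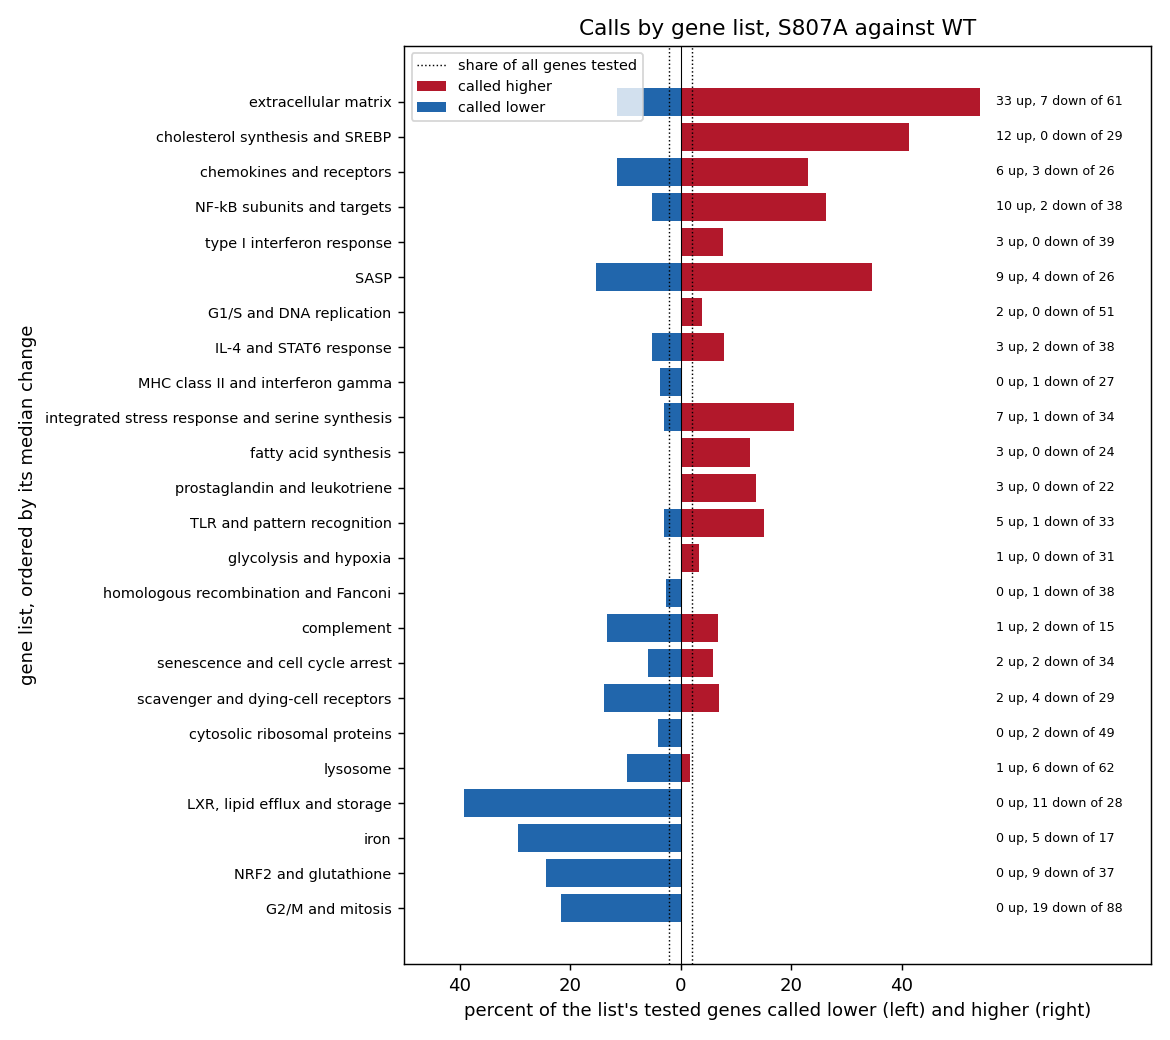
For each list with at least 15 tested genes and at least 1 call, bars give the percent of its tested genes called higher (red, right) and lower (blue, left) in S807A; dotted lines are the shares over all genes, 1.97% and 2.1%. Matrix and cholesterol lists lie furthest to the right, and lipid efflux, iron, NRF2 and mitotic lists hold falls only.

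Of 38 tested IL-4 and STAT6 response genes 3 rose and 2 fell (13.2% called, against 4.07% of all genes), with a median of 0.09. At an unadjusted p under 0.05, 12 were higher and 4 lower. None of the 7 receptors and kinases, 4 feedback genes or 8 transcription targets was called by edgeR, with 1, 1 and 2 of them at an unadjusted p under 0.05. Arg1, the enzyme that splits arginine, was at 46.7, 41.6 and 48.4 CPM in WT and 49.9, 49.1 and 42 CPM in S807A and did not pass (adjusted p = 0.895, 95% interval of the log2 change -0.12 to 0.21). Retnla was at 189.6, 257 and 233 CPM in WT and 149, 203 and 191 CPM in S807A (adjusted p = 0.228), and the receptor chain Il4ra at 74.9, 86.5 and 80.6 CPM in WT and 68.2, 73.6 and 76.7 CPM in S807A (adjusted p = 0.486).

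Mgl2, a C-type lectin with the close relative Clec10a, was at 13, 13.6 and 13.4 CPM in WT and 28.1, 27.4 and 26.5 CPM in S807A (2.05-fold, adjusted p = 1.18e-06), while Clec10a did not pass, at 9.03, 8.75 and 7.73 CPM in WT and 9.48, 13.8 and 9.76 CPM in S807A (adjusted p = 0.179). Fn1 and Mrc1 rose as given. Chil3, a secreted chitinase-like protein, was at 27, 28.6 and 35.1 CPM in WT and 16.4, 22.3 and 19.6 CPM in S807A (1.56-fold lower, adjusted p = 0.00429), and Tgm2, a transglutaminase, at 142, 169 and 147 CPM in WT and 119, 113 and 119.9 CPM in S807A (1.3-fold lower, adjusted p = 0.00589). The call of Chil3 ended without WT2 and S807E library 3 (adjusted p = 0.0608). In S807E Chil3 was at 122 ± 13.6 CPM, Arg1 at 121 ± 5.55 CPM and Retnla at 467 ± 41.4 CPM (SD, n = 3), each above S807A (adjusted p = 1.88e-09, adjusted p = 7.37e-09 and adjusted p = 1.87e-05). Mgl2 was at 26.8 ± 2.7 CPM in S807E, and its level there could not be told from S807A (adjusted p = 0.877).

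The promoters of Chil3 and Retnla are shown for the TTC and GAA arms of the palindrome that STATs are known to bind. Most STATs favour 3 bases between the arms (TTCNNNGAA), and STAT6 is known to favour 4 (TTCNNNNGAA). Capitals mark either form in the 250 bases before the RefSeq start.
Chil3 (chr3:106167565-106167814, minus strand): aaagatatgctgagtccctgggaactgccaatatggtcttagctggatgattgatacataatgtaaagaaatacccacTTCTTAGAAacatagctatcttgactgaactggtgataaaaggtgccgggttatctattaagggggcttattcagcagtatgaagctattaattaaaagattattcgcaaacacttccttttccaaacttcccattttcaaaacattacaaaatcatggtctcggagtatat
Retnla (chr16:48842359-48842608, plus strand): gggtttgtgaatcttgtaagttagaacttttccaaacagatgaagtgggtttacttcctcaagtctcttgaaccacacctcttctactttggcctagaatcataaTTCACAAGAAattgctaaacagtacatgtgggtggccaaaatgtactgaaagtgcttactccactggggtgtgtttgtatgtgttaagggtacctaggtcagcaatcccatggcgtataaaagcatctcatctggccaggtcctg

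Chil3 held 1 match with 3 bases between the arms, and Retnla 1 with 4. The 3-base form was present in 4 of 28 list genes with a promoter (14.3%) and in 5.95% of all 9635, and the 4-base form in 4 of 28 (14.3%) and 4.68% of all. Of the genes called higher 4.98% held the 4-base form, and of those called lower 6.45%. A match is not evidence of binding.

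Cholesterol synthesis genes rose by small amounts. Of 29 tested genes of the pathway and its regulator SREBP2, 12 rose and none fell (41.4% called, against 4.07% of all genes). A positive change was seen in 25, and the median over the list was 0.26. Sqle, the squalene epoxidase, was at 55.3, 50.6 and 53.8 CPM in WT and 71.6, 70.8 and 64.2 CPM in S807A (1.29-fold, adjusted p = 0.00315). The sterol enzyme Cyp51 was at 65.8, 56.6 and 60.9 CPM in WT and 81.8, 73.7 and 77.8 CPM in S807A (1.27-fold, adjusted p = 0.0165).

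Only the call of Sqle held in each alternative. Without SA1 it was the single call of the list, 3 genes were called without WT3 and 3 without SA3, and 7 without WT1 and 7 without SA2. The median stayed between 0.22 and 0.29. In S807E Sqle was at 50.8 ± 2.6 CPM (SD, n = 3), below S807A (adjusted p = 0.000479).

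The promoter of Srebf2, which encodes SREBP2, is shown because that factor is known to act on its own gene. Srebf2 was at 243, 265 and 244 CPM in WT and 306, 279 and 322 CPM in S807A (adjusted p = 0.0219, a call that ended without WT1, WT3, SA1 or SA3). Capitals mark a sterol regulatory element (ATCACCCCA on either strand) and CCAAT, bound by NF-Y, the known partner of SREBPs.
Srebf2 (chr15:82147019-82147268, plus strand): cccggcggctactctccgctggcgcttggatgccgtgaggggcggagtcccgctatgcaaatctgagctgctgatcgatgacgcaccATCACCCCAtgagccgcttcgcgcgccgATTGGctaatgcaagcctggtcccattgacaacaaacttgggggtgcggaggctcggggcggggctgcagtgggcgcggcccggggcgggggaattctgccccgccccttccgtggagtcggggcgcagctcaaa

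The element was present in 12 of the 9635 promoters (0.1245%), and Srebf2 was the 1 gene with it among the 22 of the list that had a promoter sequence. CCAAT was present in 5 of the 6 risen list genes with a promoter (83.3%) and in 17 of 22 tested (77.3%), against 36.7% of all. Of 24 fatty acid synthesis genes 3 rose (12.5% called, against 4.07% of all genes): the desaturase Fads2 (1.46-fold, adjusted p = 0.00801), Acsl3 and Acaca. All 3 calls ended without WT3 or SA1.

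Some genes listed for lipid handling fell. Of 28 tested genes on the LXR, lipid efflux and storage list 11 fell and none rose (39.3% called, against 4.07% of all genes, median -0.14). Fabp4, a fatty acid carrier, was at 57.9, 56.2 and 57.6 CPM in WT and 39.9, 44.7 and 40.2 CPM in S807A (1.38-fold, adjusted p = 0.000409), and Pltp, the phospholipid transfer protein, at 544, 652 and 589.7 CPM in WT and 434, 437 and 438 CPM in S807A (1.36-fold, adjusted p = 0.000459). Angptl4, an inhibitor of lipoprotein lipase, was at 9.07, 7.46 and 8.05 CPM in WT and 4.41, 5.1 and 4.99 CPM in S807A (1.71-fold, adjusted p = 0.00149). These genes and Gpnmb held in each alternative. The other 7 calls, among them the lipid droplet protein Plin2 (adjusted p = 0.0109) and the cholesterol esterifying enzyme Soat1 (adjusted p = 0.0394), ended without WT3 or SA1. The transporters Abca1 and Abcg1, central LXR targets, did not pass (adjusted p = 0.0952 and adjusted p = 0.418).

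Of 62 lysosomal genes 6 fell and 1 rose (11.3% called, against 4.07% of all genes), with 51 negative changes and a median of -0.08. Ctsl and Ctsd fell as above, and Sort1, a sorting receptor for lysosomal proteins, was at 123, 125 and 129.6 CPM in WT and 85, 97.4 and 97.1 CPM in S807A (1.35-fold, adjusted p = 0.00128). The abundant cathepsin Ctsb did not pass (adjusted p = 0.909). Atp6v0d2, a proton pump subunit, fell 1.28-fold (adjusted p = 0.0106), a call that ended without WT3, SA1 or SA3 and with library totals alone.

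Of 37 NRF2 and glutathione genes 9 fell and none rose (24.3% called, against 4.07% of all genes, median -0.17). Gstm1, a glutathione transferase with close relatives, was at 103, 127 and 113 CPM in WT and 73.4, 74.9 and 82.1 CPM in S807A (1.49-fold, adjusted p = 0.000107), and it was the single call that held in each alternative, with 1 call left without WT3, 1 without SA1, 4 without SA2 and 5 without SA3. Of 17 iron genes 5 fell (29.4% called, against 4.07% of all genes): the exporter Slc40a1 (adjusted p = 0.0125), Hmox1, Trf, Fth1 and Slc11a1. No list gene was called lower without WT3 or without SA1, 1 was without SA2, and 3 were without SA3, under the replicate block or at 5 CPM or more. Fth1, the ferritin heavy chain, was at 9317, 12055 and 9757 CPM in WT and 8288, 7795 and 8899.5 CPM in S807A (adjusted p = 0.0394). The scavenger and dying-cell receptor list of 29 held 2 rises and 4 falls (20.7% called, against 4.07% of all genes). Besides Cd5l and Tgm2, the falls included Mfge8, which bridges dying cells to phagocytes. It was at 335, 398 and 376 CPM in WT and 240.3, 212 and 248 CPM in S807A (1.58-fold, adjusted p = 4.63e-05).

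Some genes of amino acid supply rose. Of 34 integrated stress response and serine synthesis genes 7 rose and 1 fell (23.5% called, against 4.07% of all genes, median 0.07). The mitochondrial folate enzyme Mthfd2 was at 14.9, 15.4 and 14.7 CPM in WT and 24, 20.1 and 19.5 CPM in S807A (1.42-fold, adjusted p = 0.00269), and the glutamine carrier Slc1a5 at 58.4, 59.8 and 56.3 CPM in WT and 76.1, 70.01 and 74.6 CPM in S807A (1.27-fold, adjusted p = 0.00379). Nupr1 rose 1.56-fold (adjusted p = 0.00456). Asparagine synthetase, Asns, was at 8.87, 7.63 and 7.91 CPM in WT and 13.8, 13 and 10.8 CPM in S807A (adjusted p = 0.00578), and lost its call without SA1 (adjusted p = 0.0558). In S807E Mthfd2 was at 22.6 ± 1.26 CPM and Slc1a5 at 80.2 ± 4.24 CPM (SD, n = 3), levels that could not be told from S807A (adjusted p = 0.625 and adjusted p = 0.255).

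Among glycolysis and hypoxia genes Pdk1, which restrains pyruvate entry into mitochondria, was at 49.2, 43 and 47.5 CPM in WT and 72.5, 67.7 and 68.7 CPM in S807A (1.49-fold, adjusted p = 4.5e-05). It was the single call of 31 (3.23%, against 4.07% of all genes). Neither the main edgeR fit nor DESeq2 called any of 44 oxidative phosphorylation genes (0 at an unadjusted p under 0.05) or of 26 unfolded protein response genes (1). Over the alternatives at most 1 unfolded protein response gene was called, lower in S807A. Of 49 ribosomal protein genes Rpl37 and Rpl38 were called (4.08%, against 4.07% of all genes). Both were lower (adjusted p = 0.0237 and adjusted p = 0.0339), and neither held when WT2, WT3, SA1 or SA2 was dropped.

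Of the marker lists of other leukocytes few members were tested, and the called ones were 1 of 4 for neutrophils, 1 of 3 for eosinophils, 1 of 3 for T and NK cells and 4 of 7 for monocytes and small peritoneal macrophages, against 4.07% of all genes. Ear2, an eosinophil and macrophage ribonuclease with near-identical relatives, was at 4.91, 5.99 and 6.47 CPM in WT and 2.78, 2.14 and 2.06 CPM in S807A (2.46-fold, adjusted p = 0.000104), while the eosinophil markers Ear1 and Ear6 were at 0 in all libraries. Il7r was at 509, 429 and 479 CPM in WT and 349.8, 380.5 and 359 CPM in S807A (adjusted p = 0.00342), while Cd3e, Cd3g and Trbc2 of T cells were at 0. The neutrophil list gave Mmp8 alone as called, with Ly6g at 0 and summed levels of 224.9 to 246 CPM in WT and 199.8 to 229 CPM in S807A. The resident large peritoneal macrophage markers split, with 1 higher and 1 lower of 5 tested and 3 with a positive change. Serpinb2 was the higher one, with 9 counts in WT and 51 in S807A, a ratio of 5.83 (2.84 to 13.5), and Cd5l the lower one. The sum over all 12 listed markers was 41.7 to 49.4 CPM in WT and 26.8 to 28.3 CPM in S807A, most of it Cd5l. Of the monocyte markers 3 were higher and 1 lower, with a sum of 335 to 402 CPM in WT and 313 to 392 CPM in S807A. The part of other cells in these differences was not tested.

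Between S807E and S807A 43 of the 52 genes that the naming rule chose by size of change were called, and 10.2% of all tested genes. The rule chose these genes for an extreme level in the same S807A libraries, so nothing is read from that share. S807A and S807E were each set against the same WT libraries, so agreement between them is not given as a result either. Genes at which the 2 mutants could not be told apart included Cspg4 (3.2 ± 1.08 CPM in S807E, adjusted p = 0.424), Adra1a (5.78 ± 0.176 CPM, adjusted p = 0.363) and Hmga2 (5.04 ± 0.83 CPM, adjusted p = 0.552), each SD with n = 3. Pkp2 (6.65 ± 0.975 CPM), Mrgpre (14.4 ± 1.25 CPM) and Htra4 (6.88 ± 1 CPM) were near their WT level in S807E and lower in S807A (adjusted p = 0.000163, adjusted p = 8.92e-05 and adjusted p = 0.000257). Gpnmb (18061 ± 1112 CPM) and Ctsl (1852 ± 37.9 CPM) gave the same order (adjusted p = 0.00104 and adjusted p = 1.64e-05).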

How the data were processed

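The authors deposited 1 table of raw counts, with Ensembl genes in lines and the 9 libraries in columns. Per the submitters' processing notes, HISAT2 2.1.0, featureCounts and the mm10 build were used. For featureCounts the version, the annotation release, the strand setting and the treatment of multiply mapping reads were not given in the sources used here, so overlapping, antisense and near-identical genes are uncertain. Symbols and positions came from GENCODE M21 (GRCm38) for 55141 of 55401 gene IDs.

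Groups followed the genotype labels. Low genes were removed with filterByExpr of edgeR 4.0.16 under R 4.3.3 (minimum count 10, minimum total 15), libraries were scaled by TMM, and all 9 were fitted by genotype with a robust quasi-likelihood model (6 residual degrees of freedom, biological coefficient of variation 6.75%). The 2-sided F test was adjusted by Benjamini-Hochberg over all genes. CPM use the TMM-scaled total. The fit was tested on simulated data. DESeq2 1.42.0, other scalings and filters, a replicate block and left-out libraries were alternatives.

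The members, the lists (textbook knowledge) and the tests were chosen with earlier results of these data known. Named genes were Stat6 and, among called genes without overlap, the 12 risen and 12 fallen with the largest fold at 5 CPM or more, the 8 with the largest CPM gain and loss, the 6 risen and 6 fallen below 5 CPM with the largest fold, and list members; some of these are not reported here. Counting ratios carry exact 95% intervals. Promoters (250 bases, first listed start) came from RefSeq for 9635 tested genes. Same-numbered WT and S807A libraries did not deviate together (r = -0.02, -0.14 and -0.03).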

Additional observations from a re-analysis of the deposited data

Results flagged for a closer look

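At 11 of the genes named by rule or list the 2 mutants were called on opposite sides of WT and differed from each other. The log2 difference, S807E minus S807A, was -1.82 for Marcksl1, -1.62 for Clec4e, -2.11 for Cx3cr1, -1.52 for Thbs1, -0.70 for Rassf4, -0.54 for Ifi27l2a, -0.82 for Cd14, -0.71 for Tlr2 and -0.84 for the transcription factor Maf, all higher in S807A and lower in S807E than in WT. It was 2.66 for Chil3 and 0.98 for Slc7a2, an arginine carrier, both lower in S807A and higher in S807E. In S807E Cx3cr1 was at 1.94 ± 0.384 CPM and Clec4e at 5.78 ± 0.224 CPM (SD, n = 3), against 4.48 ± 0.477 CPM in WT and 8.33 ± 1.76 CPM in S807A for Cx3cr1 and 9.61 ± 0.098 CPM in WT and 17.8 ± 2.44 CPM in S807A for Clec4e. The calls in S807A of Ifi27l2a, Cd14, Tlr2, Maf, Slc7a2 and Chil3 did not hold in every alternative. Both contrasts use the same WT libraries, and the genes were chosen by these differences, so the values are a description.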

How the results depend on the processing

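The 549 called genes became 533 with library totals in place of TMM, 548 with RLE factors, 576 with DESeq2, 757 without a filter on low counts, 384 among genes of at least 5 CPM and 569 with S807E out of the fit. Leaving out 1 library in turn gave 297 (without WT3) to 534 (without WT2), and leaving out WT2 and S807E library 3, chosen after seeing the data, gave 903. With the replicate block 500 genes were called. Same-numbered WT and S807A libraries did not deviate together, but 3 pairs cannot show whether they shared a batch, and the labels do not say. The number of rule-named genes that differed between the mutants was 39 to 43 over leave-one-out fits and 34 of 40 at 5 CPM or more. No named gene reversed its direction in an alternative where it was called there or in the main fit. Signs of genes called in neither were not compared. Of the gene-level values 197 lost the call and 24 gained it. Among recomputed list medians the matrix list ranged most (-0.08 to 1.36), and its low end came from genes of at least 5 CPM. With 3 libraries a group, folds of genes under 1 CPM are imprecise.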

Other observations

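Other groups were looked at after their values were seen, and are given as values, so their counts of calls are no result. Of 12 tested genes of bone morphogenetic protein and TGF-beta response 4 were lower in S807A, against 2.1% of all genes. The inhibitor of differentiation Id3 was at 163, 175 and 173 CPM in WT and 119, 113 and 119 CPM in S807A (1.46-fold, adjusted p = 2.16e-05) and the inhibitory Smad6 at 15.4, 16.7 and 16.1 CPM in WT and 9.12, 10.6 and 7.71 CPM in S807A (1.75-fold, adjusted p = 0.000459). Id1 did not pass, at 11.9, 11.4 and 10.5 CPM in WT and 11.3, 9.22 and 9.3 CPM in S807A (adjusted p = 0.609). The receptors Acvrl1 and Bmpr2 did not pass either (adjusted p = 0.956 and adjusted p = 0.634). Id3 was at 165 ± 8.63 CPM in S807E (SD, n = 3), above S807A (adjusted p = 3.51e-05).

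Of 15 tested clock genes, also picked after their values were seen, 3 were lower, against 2.1% of all genes. The repressor Nr1d1, known as REV-ERB alpha, was at 10.7, 11.7 and 11.3 CPM in WT and 6.52, 6.06 and 6.32 CPM in S807A (1.78-fold, adjusted p = 0.000177), Cipc at 111, 99.9 and 108 CPM in WT and 79, 86.2 and 80.7 CPM in S807A (1.3-fold, adjusted p = 0.00108), and Dbp at 19.4, 20.2 and 18.6 CPM in WT and 13.8, 15 and 14.9 CPM in S807A (1.33-fold, adjusted p = 0.00794), the last without a call when SA1 was left out. Arntl and Clock, which drive the cycle, did not pass (adjusted p = 0.948 and adjusted p = 0.934). The hour at which cells were taken is not in the labels.

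Among syndecans Sdc1 fell as reported, while Sdc4 was at 172, 159 and 160.0 CPM in WT and 207, 209.6 and 199 CPM in S807A (1.25-fold higher, adjusted p = 0.00246). Of 7 tested Fc receptor genes 4 were lower and 1 higher, against 4.07% of all genes called. Fcgr2b fell 1.23-fold (adjusted p = 0.0126), Fcgr3 1.17-fold (adjusted p = 0.0297) and Fcgrt 1.25-fold (adjusted p = 0.0261), and each of these calls ended without WT3 or SA1. Fcgr4 was at 19.5, 20.7 and 20.6 CPM in WT and 13.4, 14.1 and 11.5 CPM in S807A (1.56-fold lower, adjusted p = 0.000352) and the scavenger-like Fcrls at 192, 189.8 and 196 CPM in WT and 256, 261 and 252 CPM in S807A (1.33-fold higher, adjusted p = 9.12e-05), while Fcer1g, the signalling chain of activating Fc receptors, did not pass, at 639, 679 and 648 CPM in WT and 668, 670.4 and 653 CPM in S807A (adjusted p = 0.945). Of 12 myeloid C-type lectin genes of chromosome 6, Clec4a1 (1.32-fold), Clec4a3 (1.3-fold), Clec5a (1.3-fold) and Clec12a (1.23-fold) rose beside Clec4e. The call of Clec12a ended without WT3 or SA1, and Clec4a1 and Clec4a3 are close copies between which reads may be split.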
